A study of Homo sapiens with 15 samples.

Results

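The genes described here were near the low end of the array scale in A2780, a human ovarian cancer line that is sensitive to cisplatin, and high in CP70, a cisplatin-resistant line derived from it, whatever drug CP70 had received. Each gene was represented by 1 probe set, the one with the highest mean over the 15 arrays. A gene was a member if its mean over the 3 A2780 arrays was under 5 on the log2 scale and its mean was at least 7.5 in each of the 4 CP70 groups. Of 19775 genes with a single symbol, 47 met these limits. The 4 genes ADAMTS5, HOXB6, SCG2 and XCL1 were left out by name, which left 43 members. These limits used the A2780 and CP70 levels, so the line difference of the members is a description and was not tested.

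Total RNA was amplified, biotin-labelled and hybridised to Affymetrix expression arrays, with 3 biological replicates in each of 5 groups. CP70 was given decitabine at 0.1 µM for 48 h, PXD101 at 0.1 µM for 48 h, or both drugs, with decitabine for 48 h and PXD101 at 0.1 µM for 24 h within it. Treated cells were collected 96 h after the drugs were removed. Untreated CP70 and untreated A2780 completed the groups. Decitabine is a cytidine analog that depletes DNA methyltransferases, and PXD101, or belinostat, blocks histone deacetylases. Exposure to PXD101 thus differed between the arms with and without decitabine. The treatment notes once spell the line of the combined arm cp80, whereas the sample titles give CP70. The labels do not say whether untreated CP70 received vehicle or was collected at the same time. Each drug state came from a single line, so the line contrast compares 1 line with 1 line.

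DNA methylation at CpG-rich promoters can keep a gene silent in cultured tumour cells, and drugs of the decitabine class can reactivate such genes. Histone acetylation generally accompanies active transcription. The members span developmental transcription factors, growth factor ligands, adhesion and guidance receptors and cytoskeletal proteins. As in any bulk RNA sample, fewer cells making a transcript and less transcript per cell cannot be told apart here.

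The word silent rests on the probe sets that were read. Of the other probe sets of the members, 14, in 12 members, also met both limits. A2780 means under 5 were common, at 7023 genes or 35.5% of all, and 6813 genes (34.5%) had means of at least 7.5 in all 4 CP70 groups. In 10 members, 1 or more A2780 arrays read 5 or above, and in 6 members a CP70 array read under 7.5. For FMN2, NRG1 and LDB3, a different probe set of the same gene read between 5.51 and 6.59 in A2780, as given below. For PPP3CA, MME, SEMA6D, BACE2 and RARB, a different probe set read between 5.14 and 5.49 in A2780. The arrays carry no count and no detection call, so low in A2780 is the safer description.

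Markers of ovarian carcinoma were mixed in both lines. PAX8 averaged 7.28 in untreated CP70 and 7.08 in A2780, and FOLR1 averaged 11.35 in untreated CP70 and 11.61 in A2780, on the log2 array scale. WT1 averaged 3.68 in untreated CP70 and 3.63 in A2780, and MUC16 averaged 4.04 in untreated CP70 and 3.86 in A2780, both near the low end. Of 14 ovarian markers, 3 were called higher and 0 lower in untreated CP70 than in A2780 in the limma fit of all 15 arrays, namely KRT18, EPCAM and EMX2. With decitabine 4 of the 14 were called higher than in untreated CP70, and with both drugs 4 were higher and 1 lower. The leukocyte gene PTPRC averaged 3.95 in untreated CP70 and 3.81 in A2780. Of 12 leukocyte markers, 1 was called higher (LAPTM5) and 1 lower (CORO1A) in untreated CP70 than in A2780 in the limma fit of all 15 arrays. The median over 12 leukocyte markers lay between 4.71 and 4.82 on decitabine arrays, between 4.62 and 4.85 with both drugs and between 4.51 and 4.83 in untreated CP70. Of these 12 markers, 3 were higher with decitabine and 4 with both drugs than in untreated CP70, and their part in the results was not tested.

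Untreated CP70 replicate 2 stood apart from replicates 1 and 3. Its Pearson correlation with the 3 arrays of PXD101-treated cells was 0.995 to 0.997 across the 19775 genes. With untreated CP70 replicates 1 and 3 the correlation was 0.983 and 0.986. Replicate 2 read more than 0.5 log2 below the mean of the other 2 untreated replicates in 14 of 43 members (32.6%), against 7.61% of all genes. It read more than 0.5 log2 above them in 4 members (9.30%), against 11.6% of all genes. Counts of called members against untreated CP70 are therefore given with and without that array. The 3′ minus 5′ actin signal, a measure of RNA length, was 0.34 to 0.79 in decitabine arrays, 0.38 to 0.51 in PXD101 arrays, 0.42 to 0.49 with both drugs, 0.63 to 0.86 in untreated CP70 and 0.34 to 0.38 in A2780. Its part in the results was not tested.

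The promoter windows of 6 members are shown because the text turns on these genes and because they span the range of CpG content. Each window runs from 250 bases before to 50 bases after the RefSeq start on GRCh38.p14, 5′ to 3′ on the gene's strand, and capitals mark CpG dinucleotides.
PTPRK, chr6:128520550-128520849, minus strand: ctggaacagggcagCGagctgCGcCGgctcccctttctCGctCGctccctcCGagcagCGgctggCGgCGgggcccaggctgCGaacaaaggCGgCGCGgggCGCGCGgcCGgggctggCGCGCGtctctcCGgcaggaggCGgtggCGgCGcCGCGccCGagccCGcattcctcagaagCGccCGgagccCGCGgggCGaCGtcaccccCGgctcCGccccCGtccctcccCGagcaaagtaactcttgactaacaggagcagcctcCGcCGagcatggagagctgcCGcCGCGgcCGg
NLGN1, chr3:173397494-173397793, plus strand: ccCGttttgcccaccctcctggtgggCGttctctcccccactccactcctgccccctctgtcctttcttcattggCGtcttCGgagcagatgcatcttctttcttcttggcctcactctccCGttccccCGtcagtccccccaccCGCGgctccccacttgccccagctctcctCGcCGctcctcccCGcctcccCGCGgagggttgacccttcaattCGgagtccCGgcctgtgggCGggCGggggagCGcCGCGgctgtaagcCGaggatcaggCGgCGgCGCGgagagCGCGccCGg
CD55, chr1:207321428-207321727, plus strand: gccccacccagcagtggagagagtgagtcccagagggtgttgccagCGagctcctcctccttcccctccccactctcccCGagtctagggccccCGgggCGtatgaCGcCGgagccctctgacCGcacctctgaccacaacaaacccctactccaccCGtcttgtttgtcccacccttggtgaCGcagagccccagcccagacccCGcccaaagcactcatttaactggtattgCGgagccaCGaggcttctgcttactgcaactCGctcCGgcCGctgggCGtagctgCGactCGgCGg
LDB3, chr10:86668261-86668560, plus strand: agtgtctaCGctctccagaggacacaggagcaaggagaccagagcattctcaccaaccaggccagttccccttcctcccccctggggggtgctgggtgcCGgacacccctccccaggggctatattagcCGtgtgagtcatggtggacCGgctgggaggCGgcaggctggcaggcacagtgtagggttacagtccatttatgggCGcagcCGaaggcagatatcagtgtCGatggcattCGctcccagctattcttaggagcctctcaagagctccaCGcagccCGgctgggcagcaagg
AGR2, chr7:16804950-16805249, minus strand: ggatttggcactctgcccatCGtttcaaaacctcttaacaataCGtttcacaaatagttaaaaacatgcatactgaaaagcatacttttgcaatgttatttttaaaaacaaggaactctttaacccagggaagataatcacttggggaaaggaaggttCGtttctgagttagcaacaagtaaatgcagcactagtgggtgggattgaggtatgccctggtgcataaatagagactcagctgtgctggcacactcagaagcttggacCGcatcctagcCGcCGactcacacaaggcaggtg
ZPLD1, chr3:102434765-102435064, plus strand: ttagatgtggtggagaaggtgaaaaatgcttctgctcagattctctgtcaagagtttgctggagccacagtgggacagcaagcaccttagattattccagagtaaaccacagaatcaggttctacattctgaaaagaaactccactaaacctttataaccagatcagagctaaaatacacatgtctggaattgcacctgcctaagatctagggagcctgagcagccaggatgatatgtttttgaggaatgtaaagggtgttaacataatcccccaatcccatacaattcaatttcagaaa
The PTPRK window held 44 CpG, the NLGN1 window 28, the CD55 window 19, the LDB3 window 11, the AGR2 window 6 and the ZPLD1 window 0. The set therefore included genes at both ends of the CpG scale. Windows were found for 32 of the 43 members.

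Members stood a median of 4.97 log2 above A2780 in untreated CP70, with a range of 2.70 for LDB3 to 7.85 for ZPLD1. On the linear scale that is 6.49-fold to 230-fold, with a median of 31.3-fold. The lowest of the 12 CP70 arrays lay above the highest A2780 array for all 43 members, by 1.33 log2 for LDB3 and by 7.18 for ZPLD1. That separation is nearly fixed by the limits. In untreated CP70 the member means ran from 7.52 to 11.60, and in A2780 from 3.25 to 5.00.

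**Figure D1:**
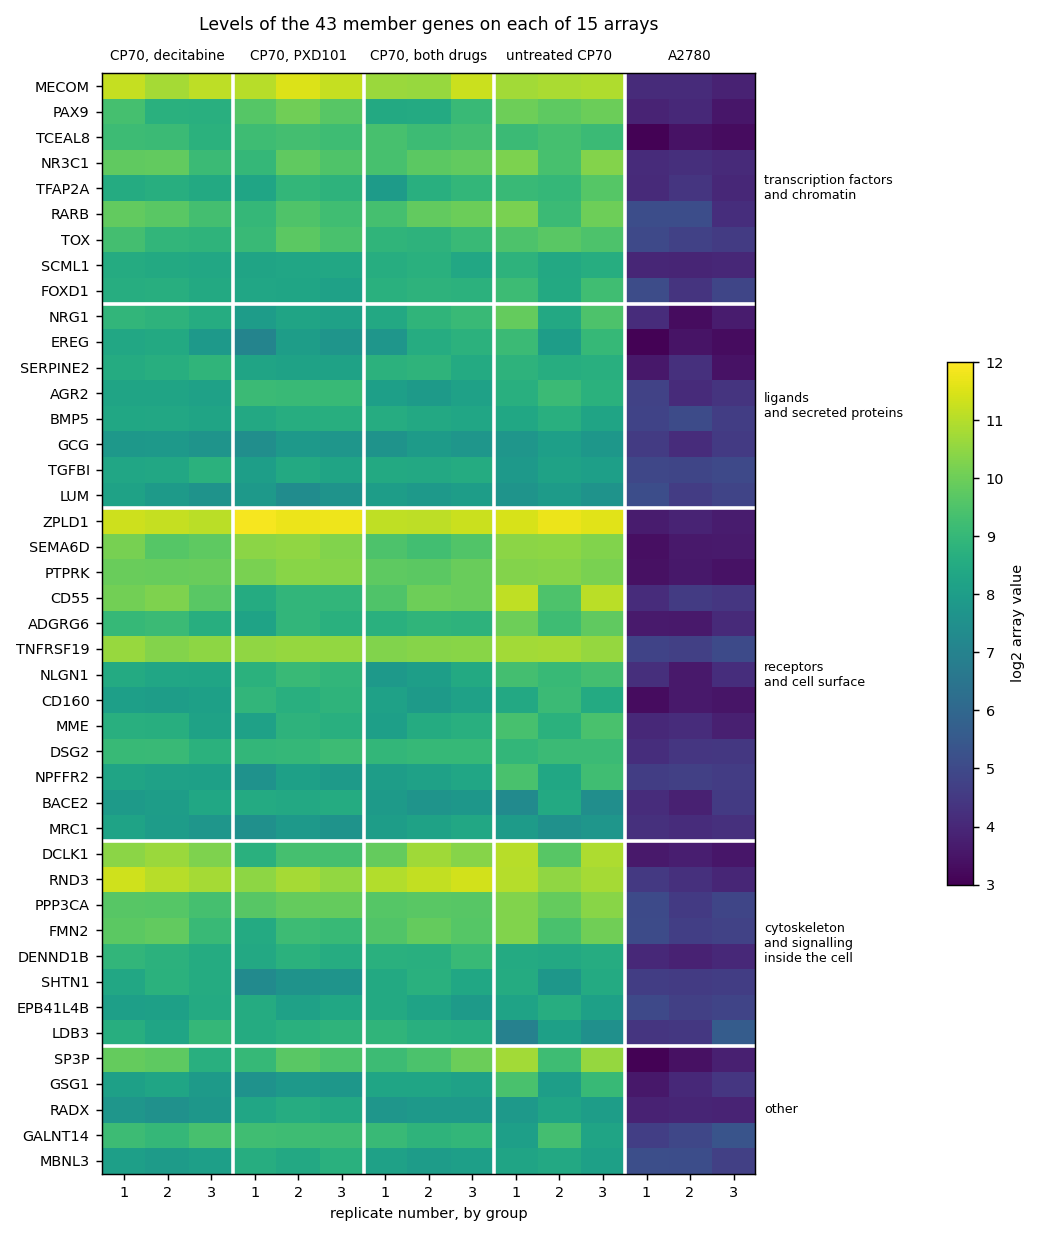
Log2 array value of each of 43 members (rows, grouped by role) on each of 15 arrays (columns, grouped by treatment and line, replicates 1 to 3), in colour from 3 to 12. All 12 CP70 columns are bright and all 3 A2780 columns are dark, and untreated CP70 replicate 2 is dimmer than replicates 1 and 3 for genes such as CD55 and DCLK1.

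The nuclear members were 9 transcription factors and chromatin proteins, with line differences of 4.18 to 6.83. MECOM, a zinc finger transcription factor that is an oncogene in leukaemia, was among the highest. It read 11.23, 10.78 and 11.09 with decitabine, 11.05, 11.52 and 11.22 with PXD101, 10.66, 10.61 and 11.29 with both drugs, 10.76, 10.87 and 10.92 in untreated CP70, and 4.11, 4.09 and 3.86 in A2780. The 3 PXD101 arrays lay above the 3 untreated CP70 arrays, the decitabine and both-drug arrays overlapped untreated CP70, and A2780 lay far below. MECOM was not called against untreated CP70 with any drug. PAX9, a paired-box factor needed for tooth and pharyngeal pouch development, averaged 9.92 in untreated CP70 and 3.83 in A2780. TCEAL8, a transcription elongation factor A-like protein, averaged 9.21 in untreated CP70 and 3.25 in A2780. Among nuclear receptors, NR3C1, which binds glucocorticoids, averaged 9.99 in untreated CP70 and 4.13 in A2780. RARB, which binds retinoic acid, averaged 9.78 in untreated CP70 and 4.81 in A2780. TFAP2A, FOXD1, TOX and SCML1 completed this group.

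The secreted members were 8 ligands and extracellular proteins with line differences of 2.89 to 5.56. The EGF family ligands NRG1, which binds ERBB3 and ERBB4, and EREG, which binds EGFR and ERBB4, were both present. EREG read 8.39, 8.48 and 7.84 with decitabine, 7.06, 7.998 and 7.70 with PXD101, 7.74, 8.56 and 8.77 with both drugs, 9.15, 8.02 and 9.03 in untreated CP70, and 3.04, 3.46 and 3.31 in A2780. PXD101 replicate 1 was the lowest CP70 array for this gene. SERPINE2, an inhibitor of thrombin and plasminogen activators, averaged 8.70 in untreated CP70 and 3.75 in A2780. AGR2, a protein disulfide isomerase of the endoplasmic reticulum, averaged 8.85 in untreated CP70 and 4.41 in A2780. BMP5, GCG (the glucagon precursor), TGFBI and LUM differed by 3.60, 3.45, 3.12 and 2.89 log2. LUM, a small proteoglycan of connective tissue, is also on the fibroblast list, whose other 13 genes included 0 higher and 5 lower in untreated CP70 than in A2780 in the limma fit of all 15 arrays.

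Surface proteins formed the largest group, with 13 members. ZPLD1, a zona pellucida-like transmembrane protein, read 11.31, 11.20 and 11.08 with decitabine, 11.89, 11.73 and 11.77 with PXD101, 11.14, 11.12 and 11.29 with both drugs, 11.45, 11.75 and 11.59 in untreated CP70, and 3.68, 3.90 and 3.68 in A2780. It had the largest line difference of the 43, at 7.85 ± 0.10 (SE). SEMA6D, a transmembrane semaphorin that guides axons, differed by 6.84, and PTPRK, a receptor tyrosine phosphatase that mediates homophilic adhesion, by 6.82. CD55, which protects cells from complement, differed by 6.19, and ADGRG6, an adhesion G protein-coupled receptor needed for peripheral myelination, by 5.88. TNFRSF19, a receptor of the tumour necrosis factor family, differed by 5.87. MRC1, the mannose receptor of macrophages, and CD160, a receptor of natural killer and T cells, were members. The leukocyte gene PTPRC was near the low end in both lines, but not every leukocyte marker was. LAPTM5 averaged 6.05 in untreated CP70 and 5.29 in A2780, and CORO1A averaged 6.01 in untreated CP70 and 6.65 in A2780. NLGN1, MME, DSG2, NPFFR2 and BACE2 were the other surface members.

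Inside the cell, 8 members act on the cytoskeleton or in signalling. DCLK1, a doublecortin-like kinase that binds microtubules, read 10.44, 10.64 and 10.28 with decitabine, 8.73, 9.33 and 9.33 with PXD101, 9.88, 10.72 and 10.36 with both drugs, 11.03, 9.66 and 10.91 in untreated CP70, and 3.62, 3.76 and 3.55 in A2780. All 3 PXD101 arrays were below every other CP70 array. PPP3CA (a catalytic subunit of calcineurin), FMN2 (a formin), DENND1B, RND3, SHTN1 (shootin), EPB41L4B and LDB3 (a PDZ-LIM protein of the muscle Z-disc) were the others. Of the 5 remaining members, GALNT14 starts mucin-type O-glycosylation, MBNL3 regulates splicing and RADX binds single-stranded DNA at replication forks. GSG1 was first described in germ cells. SP3P, a pseudogene of the transcription factor SP3, averaged 10.18 in untreated CP70 and 3.41 in A2780. The probe set of the parent gene SP3 averaged 10.52 in untreated CP70 and 10.17 in A2780, and whether the SP3P probe set also reads SP3 was not tested.

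Levels within CP70 were close for some members and spread for others. The 4 CP70 group means spanned 0.10 log2 for DSG2, a desmosomal cadherin, and under 0.5 for 11 members, including EPB41L4B, GCG, BMP5 and TCEAL8. They spanned more than 1 for 13 members, and the widest were CD55 at 1.78, DCLK1 at 1.40, PAX9 at 1.23, LDB3 at 1.20 and NRG1 at 1.15. The median span was 0.66. ZPLD1, MECOM, RND3 and TNFRSF19 had means above 10 in all 4 CP70 groups.

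The limits were sharp at their edges. Just inside the A2780 limit of 5 were MBNL3 at 4.997, GALNT14 at 4.97 and TGFBI at 4.93, and just outside were CD36 at 5.003, LINC01425 at 5.02 and TNFSF4 at 5.03. Just inside the CP70 limit of 7.5 were SHTN1 at 7.51 and EREG at 7.59 with PXD101 and LDB3 at 7.52 in untreated CP70. Just outside were CDS1 at 7.4996, PLA2G4A at 7.49 and RTN1 at 7.42. A gene that a drug had moved under 7.5 could not be a member, which limits the falls that could be seen. Nor could a gene that a drug had raised from under 7.5 in untreated CP70, which limits the rises.

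With decitabine, 9 of 43 members (20.9%) differed from untreated CP70 at an adjusted p under 0.05, against 6.61% of all genes. Of these, 8 were lower, against 2.38% of all genes, and LDB3 was higher, against 4.23%. Among other genes with all 4 CP70 means at least 7.5, 6.77% were called, with 3.46% lower and 3.31% higher. The test was limma on the 12 CP70 arrays with Benjamini-Hochberg adjustment over 19775 genes. The median member difference was -0.34 log2, against 0.02 for all genes.

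PAX9 fell most with decitabine. It read 9.35, 8.73 and 8.67 with decitabine and 10.02, 9.76 and 9.97 in untreated CP70, with no overlap. The difference was -1.0002 ± 0.21 (SE), with an adjusted p of 0.0122 in limma. NLGN1, a synaptic adhesion protein, read 8.495, 8.34 and 8.29 with decitabine and 9.30, 9.07 and 9.33 in untreated CP70, a difference of -0.86 ± 0.15 (limma adjusted p = 0.00547). AGR2 read 8.27, 8.27 and 8.16 with decitabine and 8.67, 9.13 and 8.74 in untreated CP70, a difference of -0.61 ± 0.12 (limma adjusted p = 0.00833). Another AGR2 probe set, at 5.36 in untreated CP70, differed by only -0.02. The AGR2 call was lost with the mean of probe sets (limma adjusted p = 0.127). PPP3CA, CD160, SEMA6D, ZPLD1 and PTPRK fell by 0.65, 0.61, 0.54, 0.40 and 0.37 log2, with limma adjusted p from 0.0122 to 0.0385. The arrays of the compared groups did not overlap for any of the 9. That was also so for members that were not called, such as ADGRG6, MME and TOX. The share of all genes without overlap was not counted.

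LDB3 moved the other way. It read 8.64, 8.30 and 8.98 with decitabine and 6.94, 8.12 and 7.502 in untreated CP70, a difference of 1.12 ± 0.25 (limma adjusted p = 0.0171). Its SD in untreated CP70 was 0.59. With PXD101 as the baseline, an alternative added after the data were seen, the LDB3 difference turned to -0.06 (limma adjusted p = 0.927). On that baseline 11 members were called with decitabine, against 7.08% of all genes, with 8 lower (2.6% of all genes) and 3 higher (4.49%). Of other genes with all 4 CP70 means at least 7.5, 7.1% were called, with 3.38% lower and 3.72% higher. AGR2, CD160, PAX9, PTPRK, SEMA6D and ZPLD1 were lower with decitabine against both baselines.

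The decitabine count depended on single arrays. It was 4 without decitabine replicate 2 (804 of 19775 genes called) and 2 without decitabine replicate 3 (806 of 19775). The count was 4 without untreated CP70 replicate 1 (728 of 19775) and 2 without untreated CP70 replicate 3 (694 of 19775). It was 21 members without untreated CP70 replicate 2 (22.9% of all genes called) and 4 without replicates 1 and 3 (3.32% of all genes). AGR2 fell by 0.47 without replicate 2 and by 0.89 without replicates 1 and 3, and both were called (limma adjusted p = 0.00383 and 0.00299). CD160 was also called both ways, but its call was kept in 9 of 21 refits, against 19 of 21 for AGR2. The calls of PTPRK and ZPLD1 were kept in 7 and 10 of 21, and those of the remaining called members in 14 to 20. NLGN1, PAX9, PPP3CA, PTPRK, SEMA6D, ZPLD1 and LDB3 kept their direction but were not called when replicates 1 and 3 were left out.

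**Figure D2:**
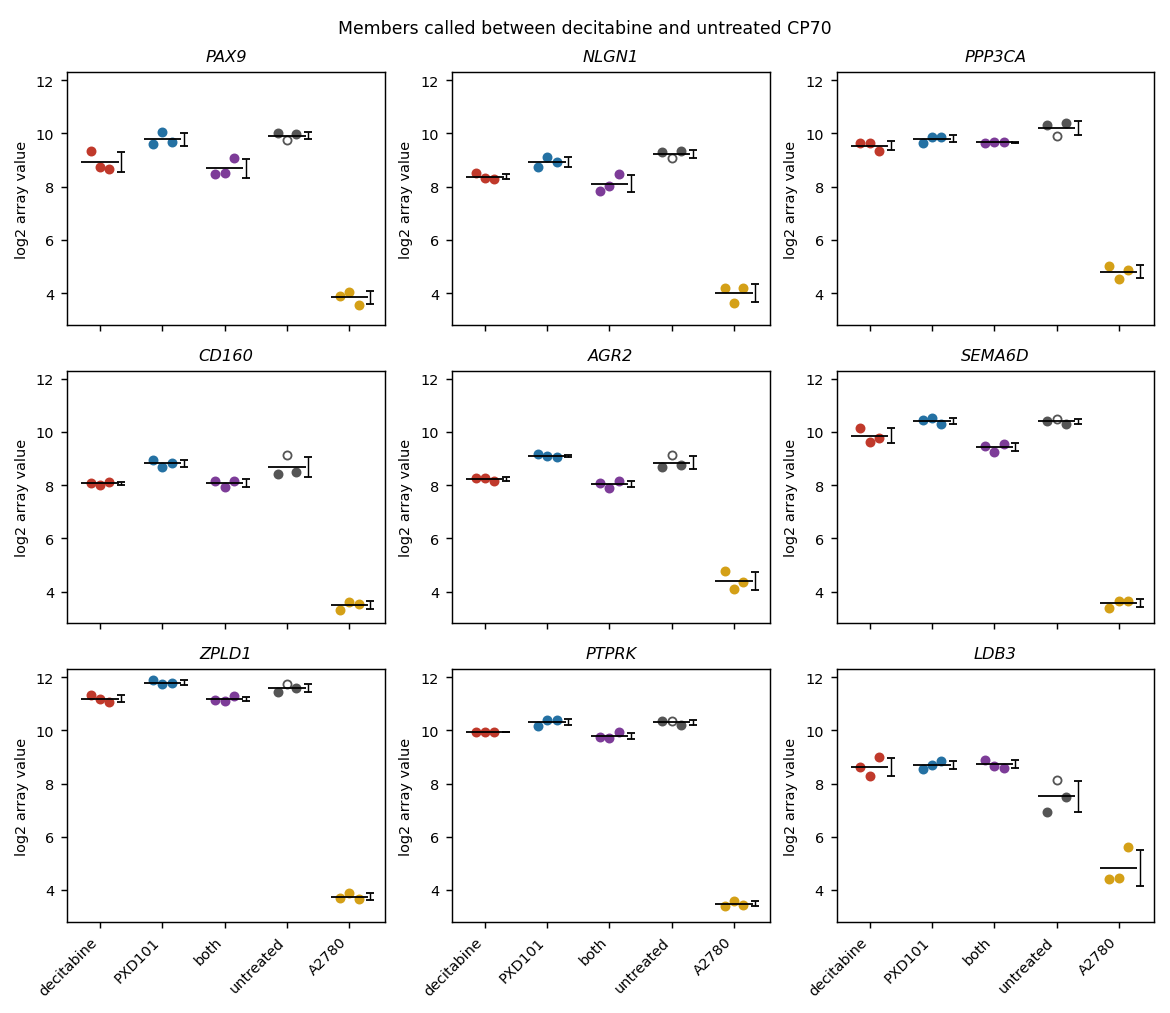
Log2 array values of the 9 members called between decitabine and untreated CP70, with 3 arrays per group, the group mean as a line and the SD as a bar beside it, and groups in the order decitabine, PXD101, both drugs, untreated CP70 and A2780. The open circle is untreated CP70 replicate 2, which is the highest of its group for AGR2, CD160, SEMA6D, ZPLD1, PTPRK and LDB3, and PAX9 sits near 8.9 with decitabine and 9.9 untreated.

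With PXD101 alone, 9 of 43 members were called against untreated CP70, 8 lower and LDB3 higher, against 3.36% of all genes. In single directions, 1.99% of all genes were lower and 1.38% higher. Of other genes with all 4 CP70 means at least 7.5, 5.1% were called, with 3.38% lower and 1.71% higher. The limma adjusted p of all 9 members lay between 0.0448 and 0.0495, close to the threshold. CD55 read 8.55, 8.91 and 8.92 with PXD101 and 11.16, 9.48 and 11.07 in untreated CP70. The groups did not overlap, yet untreated replicate 2 was nearer to the PXD101 arrays than to its own group. The difference was -1.78 ± 0.35 (limma adjusted p = 0.0448), or 3.42-fold lower. DCLK1, NPFFR2 (a neuropeptide FF receptor), GSG1, ADGRG6, FMN2, FOXD1 and SERPINE2 fell by 1.40, 1.13, 1.10, 1.04, 1.01, 0.71 and 0.50 log2. Another DCLK1 probe set that also met both limits differed by only -0.27. SHTN1 read 7.29, 7.61 and 7.64 with PXD101 and 8.55, 7.77 and 8.52 in untreated CP70, and missed the threshold (limma adjusted p = 0.0503).

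Untreated CP70 replicate 2 moved with these calls. Without it, 24 members were called against 28.5% of all genes, and CD55 fell by 2.32 log2 (limma adjusted p = 4.59e-06), DCLK1 by 1.84, NPFFR2 by 1.45 and SERPINE2 by 0.55. Without replicates 1 and 3, no member and no gene of 19775 was called, and the differences were -0.69 for CD55, -0.53 for DCLK1, -0.48 for NPFFR2 and -0.40 for SERPINE2. Leaving out any 1 of the other 11 CP70 arrays also left 0 members called, with at most 1 of 19775 genes called. The PXD101 differences therefore depend on which untreated arrays are used.

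**Figure D3:**
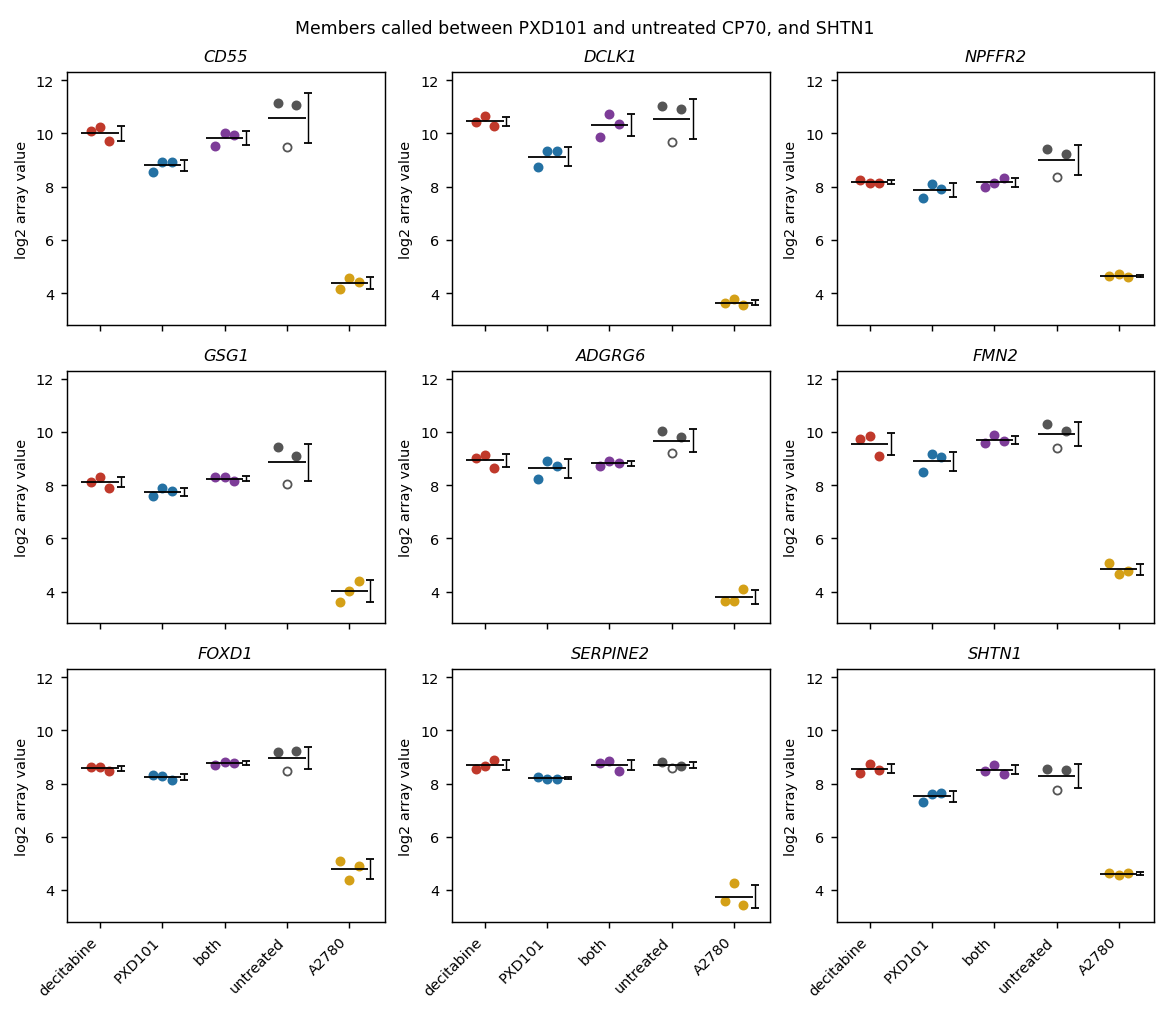
Log2 array values of the 8 members that fell with PXD101 against untreated CP70, and of SHTN1, with 3 arrays per group, group mean (line) and SD (bar), in the order decitabine, PXD101, both drugs, untreated CP70 and A2780. The open circle, untreated CP70 replicate 2, lies below the 2 filled untreated circles in all 9 panels.

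With both drugs, 13 of 43 members were called against untreated CP70, 12 lower and LDB3 higher, against 8.74% of all genes. In single directions, 3.37% of all genes were lower and 5.38% higher. Of other genes with all 4 CP70 means at least 7.5, 10.4% were called, with 5.29% lower and 5.11% higher. All 9 members called with decitabine were among the 13. ADGRG6, NPFFR2, TOX and TNFRSF19 were the other 4. PAX9 read 8.46, 8.51 and 9.09 with both drugs and 10.02, 9.76 and 9.97 in untreated CP70, a difference of -1.23 ± 0.21 (limma adjusted p = 0.00278). NLGN1 read 7.84, 8.03 and 8.47 with both drugs and 9.30, 9.07 and 9.33 in untreated CP70, a difference of -1.12 ± 0.15 (limma adjusted p = 0.000692). SEMA6D read 9.48, 9.26 and 9.55 with both drugs and 10.42, 10.47 and 10.30 in untreated CP70, a difference of -0.97 ± 0.13 (limma adjusted p = 0.000779). These 3 stayed apart from untreated CP70 on all 3 arrays. The calls of AGR2, NLGN1, PTPRK and SEMA6D were kept in all 21 refits at the same threshold. Another AGR2 probe set differed by -0.03 with both drugs. A 2-fold minimum left 3 members, a limit at which all genes were not counted, and rank product called 5. The count was 23 without untreated CP70 replicate 2 (24.2% of all genes called) and 7 without replicates 1 and 3 (3.81%).

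**Figure D4:**
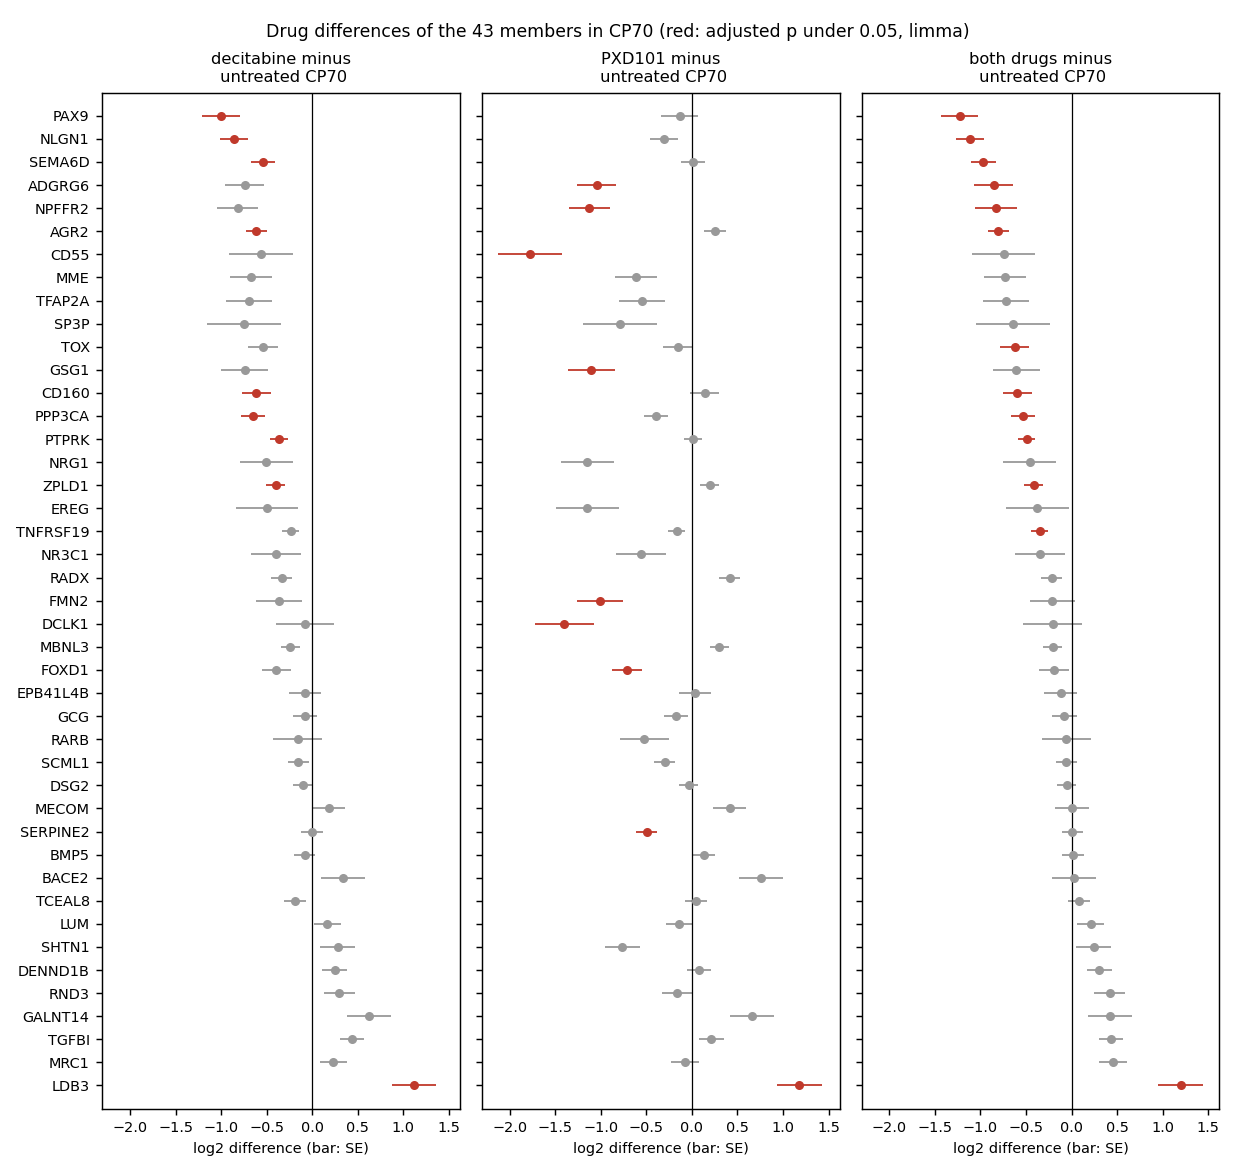
Difference from untreated CP70 in log2 units for each of 43 members (rows) with decitabine, PXD101 and both drugs (panels), with the standard error as a bar and called members in red. The decitabine and both-drug panels have 8 and 12 members called below 0, PXD101 has 8, and LDB3 is the only member called above 0 in each.

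The comparisons with untreated CP70 share its 3 arrays, so the shared calls between them are not independent. The comparisons among treated groups use untreated CP70 only in the estimate of spread. Both drugs against decitabine called no member, while 0.0101% of all genes were called, and the differences ran from -0.42 for SEMA6D to 0.28 for TCEAL8. At an unadjusted p under 0.05, 1 member was higher and 1 lower, a limit at which all genes were not counted. Rank product called 0. Both drugs against PXD101 called 12 members, against 8.51% of all genes, with 9 lower (3.22% of all genes) and 3 higher (5.29%). Of other genes with all 4 CP70 means at least 7.5, 9.23% were called, with 4.31% lower and 4.92% higher. Without untreated CP70 replicate 2, which enters only the spread, 20 members were called, against 16.1% of all genes.

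AGR2 read 8.08, 7.90 and 8.15 with both drugs and 9.15, 9.09 and 9.07 with PXD101, a difference of -1.06 ± 0.12 (limma adjusted p = 0.000129). PAX9, SEMA6D, NLGN1, CD160, RADX, ZPLD1, MBNL3 and PTPRK were also lower, by 1.09, 0.98, 0.81, 0.74, 0.63, 0.61, 0.51 and 0.51 log2 when decitabine was added to PXD101. DCLK1, SHTN1 and SERPINE2 were higher with both drugs than with PXD101, by 1.19, 1.00 and 0.51 log2. Another DCLK1 probe set that also met both limits went the other way, at 7.75 with both drugs and 8.04 with PXD101. SHTN1 read 8.47, 8.71 and 8.37 with both drugs and 7.29, 7.61 and 7.64 with PXD101 (limma adjusted p = 0.00616). The calls of AGR2, NLGN1, PAX9, PTPRK, RADX, SEMA6D, SHTN1 and ZPLD1 were kept in all 21 refits at the same threshold. A 2-fold minimum left 4 members, a limit at which all genes were not counted. PXD101 was given for 24 h in 1 of these arms and 48 h in the other, so the added drug and the shorter exposure cannot be told apart.

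The combined change minus the sum of the single changes was not called for any member, while 0.0101% of all genes were called. PXD101 was given for 24 h in the combined arm and for 48 h alone. An interaction of the drugs and the difference in exposure therefore cannot be told apart in these values. The largest positive values were CD55 at 1.59 ± 0.50 and DCLK1 at 1.27 ± 0.46, and the largest negative ones were LDB3 at -1.10 ± 0.35 and BACE2 at -1.07 ± 0.34, none called (limma adjusted p = 0.264 to 0.267). The DCLK1 value rests on the chosen probe set. At an unadjusted p under 0.05, 13 members were positive and 6 negative. All genes were not counted at that limit, so no excess among the members is shown. Without untreated CP70 replicate 2, 19 members were called, while 19.6% of all genes were, and CD55 was at 2.13 (limma adjusted p = 0.000231).

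Rank product, the test that the study's design text names, called 3 members with decitabine (1.92% of all genes), 9 with PXD101 (1.81%), 5 with both drugs (2.26%), 0 for both drugs against decitabine (0.091%) and 9 for both drugs against PXD101 (4.18%). It thus gave fewer calls than limma for decitabine and for both drugs, and as many for PXD101, of which 7 were also limma calls. For both drugs against PXD101 it gave 9 against 12 with limma, and 7 were shared.

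Other probe sets of the same genes gave a partly different picture of the line difference. There were 70 other probe sets for 32 members. Of these, 32 were at least 1 log2 higher in untreated CP70 than in A2780, in 23 members, and 38 were not, of which 28 had means under 5 in all 5 groups. For FMN2 another probe set read 6.53 in untreated CP70 and 6.59 in A2780, and for NRG1 one read 6.47 in untreated CP70 and 6.46 in A2780. NRG1 had 6 probe sets, and all except the chosen one differed by only 0.01 to 0.83 log2. For LDB3, 3 other probe sets read 5.54 to 5.75 in untreated CP70 and 5.51 to 5.83 in A2780. RARB had probe sets that differed by 0.25, 0.135 and 0.11, and another that differed by 4.62. EPB41L4B had probe sets that differed by 0.02, 0.05, -0.05 and -0.16, and another that differed by 2.10. AGR2 had one that differed by 0.89. These probe sets read the same RNA and are no replicate.

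Genes of the same families were counted in both directions. Of 429 other genes in the 18 family lists, 85 were higher and 84 lower in untreated CP70 than in A2780 (39.4%), against 31.2% of all genes. The semaphorins and their receptors, with SEMA6D as member, had 3 higher and 6 lower of 30 others, with SEMA3A at -4.01, SEMA3D at -2.67 and SEMA3C at 1.65 log2. The EGF family had 0 higher and 3 lower of 11 others, while its ligands NRG1 and EREG were members, and the receptors ERBB4, ERBB3 and EGFR differed by -3.58, -1.58 and -0.44. The TGF-beta and BMP list, with BMP5, had 11 higher and 10 lower of 40, including BMP7 at 1.38, ACVR2B at -1.89 and FSTL1 at -2.22. Of the doublecortin and neuronal microtubule genes, 3 were higher and 4 lower of 13, with DCLK2 at 1.00, MAP1A at -3.18 and NEFL at -5.90. Of the PRDM and RUNX factors, 2 were higher and 2 lower of 15, with PRDM13 at 1.28, PRDM1 at -0.75 and RUNX2 at -2.51. Of the serpins and plasminogen genes, 6 were higher and 4 lower of 20, with SERPINA3 at 5.91, PLAUR at -1.63 and SERPING1 at -2.07.

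Genes next to the members on the chromosome were measured too. Of 86 distinct neighbours, 24 were higher in untreated CP70 than in A2780 in limma (27.9%), against 16.1% of all genes, and 4 were lower, against 15.2%. DCN, beside LUM, averaged 9.98 in untreated CP70 and 6.54 in A2780. BEX2 and BEX4 flank TCEAL8. BEX2 averaged 11.21 in untreated CP70 and 8.50 in A2780, whereas BEX4 averaged 3.76 in untreated CP70 and 9.41 in A2780. SQOR, PTPN3, PDZK1, TOX-DT and THRB were the other neighbours at least 2 log2 higher. No member neighboured another member, and chromosome 3 held the most members, at 5.

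Promoter windows were compared with those of all genes. In 24 of 32 members with a window (75.0%) at least 1 window was CpG-rich, with over 50% GC and observed over expected CpG above 0.6, against 69.3% of 15384 genes. The same held for 22 of 36 genes (61.1%) with the opposite pattern, high in A2780 and low in all CP70 groups. Among genes that decitabine raised by at least 2 log2, 38 of 70 (54.3%) were CpG-rich, and among members it lowered, 4 of 7. The motif TATAAA was found on either strand in 16.1% of member windows and 8.85% of all windows, CCAAT in 32.3% and 34.5%, TGANTCA in 9.68% and 6.24%, and TGACGTCA in 0 of 62 and 2.35%. A match is a run of letters only, and these shares were not tested.

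**Figure D5:**
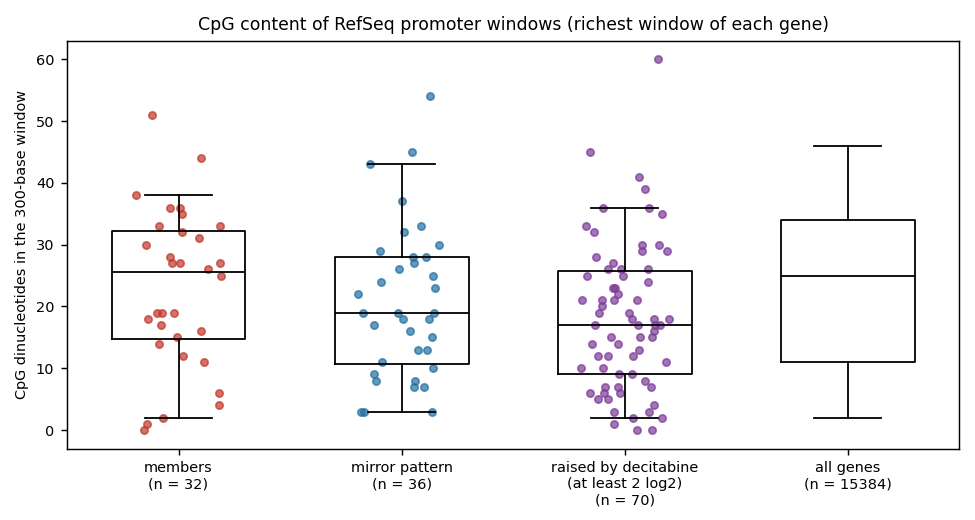
Number of CpG dinucleotides in the richest 300-base promoter window of each gene, for members, genes with the opposite pattern, genes that decitabine raised by at least 2 log2, and all genes (boxes: quartiles and median; whiskers: 5th to 95th percentile; points: genes). Members have a median of 25.5, the opposite pattern 19, the decitabine-raised genes 17 and all genes 25.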

How the data were processed

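The authors deposited 1 table of log2 values for 54675 probe sets on 15 arrays, and its unit was read from the values (2.39 to 14.52, array medians 5.00 to 5.06). Per the submitters' processing notes the tools were R 2.10.1 and affy. Background correction and normalization: not given in the sources used here. Gene names came from the platform annotation, updated through Entrez IDs: 41091 probe sets had 1 symbol besides 6 control probe sets with 1, 1801 had several and 11777 none, and all 62 control probe sets were left out. The probe set with the highest mean over all arrays stood for its gene. The number of arrays limits the precision.

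Drug contrasts were fitted with limma 3.58.1 (lmFit and eBayes, R 4.3.3) on the 12 CP70 arrays, because A2780 arrays near the low end of the scale could lower the pooled spread. The line contrast of other genes used all 15 arrays. Calls needed an adjusted p (Benjamini-Hochberg, 19775 genes) under 0.05. Rank product, named in the series' design text, used 9 pairwise differences, 100 permutations and a percentage of false positives under 5. The scripts were tested on simulated data. Promoter windows came from RefSeq tables of GRCh38.p14 (Python 3.11.15, numpy 2.4.6, pandas 2.3.3).

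Named members were the 12 largest line differences, up to 6 called rises and falls of each drug contrast, the 5 smallest and 5 largest spans of CP70 means, the 3 genes on each side of each limit, list members with up to 3 other genes per family, and members with disagreeing probe sets. Members outside this rule, chromosome neighbours and genes with the opposite pattern were named after their values were seen. The members and lists were chosen with earlier results of these data known. Replicate numbers did not pair samples.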

Additional observations from a re-analysis of the deposited data

How the results depend on the processing

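The 43 members became 26 when each gene was the mean or the median of its probe sets, 22 with limits of 4.5 and 8, and 94 with limits of 5.5 and 7; leaving out 1 array at a time gave 41 to 46. With the mean of probe sets the median line difference of the members was 3.32 in place of 4.97, and 4.88 to 5.21 without 1 array. Requiring every array past the limit left 29.

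Counts of called members against untreated CP70 depended strongly on the arrays. With decitabine 9 were called, but 2 in a fit of only the arrays compared, 27 with array weights, 4 without untreated replicates 1 and 3, 2 at a 2-fold minimum, 3 by rank product and 2 to 21 without 1 array. With PXD101 9 were called, but 0 in a fit of only the arrays compared, 0 with the mean of probe sets, 29 with array weights, 0 without untreated replicates 1 and 3, and 0 to 24 without 1 array. With both drugs 13 were called, but 6 in a fit of only the arrays compared, 27 with array weights, 7 without untreated replicates 1 and 3, 3 at a 2-fold minimum, 5 by rank product and 6 to 23 without 1 array. Both drugs against PXD101 called 12, but 20 in a fit of only the arrays compared, 24 with array weights, 20 without untreated replicates 1 and 3, 4 at a 2-fold minimum and 8 to 20 without 1 array. Both drugs against decitabine called 0 without any 1 array. The combined change beyond the sum called 0, but 22 with array weights and 0 to 19 without 1 array. The other family genes called in the line contrast numbered 169, or 149 to 185 without 1 array. The count of all genes called moved as well. Array weights called 6431 of 19775 genes with decitabine, 8421 with PXD101 and 7833 with both drugs. They called 4654 for both drugs against PXD101 and 5047 for the combined change. A fit of only the arrays compared called 507 genes with decitabine, 0 with PXD101 and 834 with both drugs. Both drugs against PXD101 called 3174 in such a fit. All genes were not counted at the 2-fold minimum. The cause of these shifts was not tested beyond the arrays left out.

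Replicate numbers did not pair the samples. With the group means subtracted, the deviations of same-numbered CP70 arrays correlated at -0.38 to 0.49 over 18 pairs. Of the 18, 4 correlated best with their own number. With the replicate block, 5 members were called with decitabine, 0 with PXD101, 6 with both drugs, 10 for both drugs against PXD101, 0 for both drugs against decitabine, 0 for the combined change, 167 other family genes, and a median line difference of 4.97. For single members, 625 alternatives kept the call and 286 lost it. The decitabine difference of LDB3 was -0.0608 when PXD101 arrays replaced untreated CP70, a setting added after seeing the data.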

Other observations

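Of the 4 genes left out by name, XCL1, a chemokine, averaged 12.38 with decitabine, 11.92 with PXD101, 12.26 with both drugs, 12.34 in untreated CP70 and 4.43 in A2780. ADAMTS5, a protease that cuts proteoglycans, averaged 10.77 in untreated CP70 and 3.24 in A2780. SCG2, a secretory granule protein, averaged 10.29 with decitabine, 10.00 with PXD101, 10.16 with both drugs, 11.35 in untreated CP70 and 4.31 in A2780.

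The opposite pattern, means of at least 7.5 in A2780 and under 5 in all 4 CP70 groups, held for 47 genes. Among them, FABP4, a fatty acid carrier, averaged 4.07 in untreated CP70 and 12.63 in A2780. LIN28A, an RNA-binding protein of pluripotent cells, averaged 4.07 with decitabine, 3.45 with PXD101, 4.30 with both drugs, 3.57 in untreated CP70 and 10.84 in A2780. DLX5, a homeobox factor of skeletal development, averaged 4.12 in untreated CP70 and 10.66 in A2780. These values are descriptions, since the levels chose the genes.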
